A study of Homo sapiens with 6 samples.

Results

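The short arm of chromosome 9 at band 9p21 was examined in peak lists of open chromatin, around the 4 genes MLLT3, MTAP, CDKN2A and CDKN2B. The span of 18 to 27 Mb was chosen from an earlier result on these data, namely that RS4;11 had no called peaks over a long stretch of it, so that absence is described here and not tested. The 12 lists gave 331 regions in the span, out of 130872 on the 22 autosomes and X, a region being the peaks of any lists that touch or overlap. RS4;11, SEM and RCH, 3 lines of B-cell acute lymphoblastic leukemia, were profiled by ATAC-seq, an assay that tags accessible DNA with a transposase. RCH was taken to be the line RCH-ACV of the growth protocol. RS4;11 and SEM are known to carry the KMT2A-AFF1 fusion. Each line was given either NT, a non-targeting control shRNA, or sh2, an shRNA against the histone methyltransferase gene NSD2, which makes 6 samples, 1 per line and shRNA. Every sample came with 2 lists, read as 2 libraries, and the labels do not tie them to separate cultures, which leaves their spread possibly technical. No group holds primary cells. All coordinates of peaks and windows are hg19.

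CDKN2A codes for p16INK4a, which blocks the cyclin D kinases CDK4 and CDK6 and thereby keeps RB1 active, and, from a separate first exon, for p14ARF, which holds back the ubiquitin ligase MDM2. CDKN2B codes for p15INK4b, another inhibitor of the same kinases. MTAP salvages methylthioadenosine, a by-product of polyamine synthesis, and lies beside CDKN2A, so that a deletion of CDKN2A often takes MTAP with it. MLLT3 (AF9) is a reader of histone acylation in the super elongation complex and is a partner of KMT2A in other leukemias. The type I interferon genes lie between MLLT3 and MTAP. Loss of 9p21 is a common lesion of acute lymphoblastic leukemia.

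The promoters of the 4 genes are shown because the regions described next lie around their starts. They are RefSeq sequences of GRCh38.p14 from 250 bases before to 50 bases after a start, matched by symbol (4 of 4 genes, 2 starts for CDKN2A). Since the peak lists are in hg19, the sequences were not placed under peaks by position. CpG dinucleotides are in capitals.
MLLT3, chr9:20622450-20622749, minus strand: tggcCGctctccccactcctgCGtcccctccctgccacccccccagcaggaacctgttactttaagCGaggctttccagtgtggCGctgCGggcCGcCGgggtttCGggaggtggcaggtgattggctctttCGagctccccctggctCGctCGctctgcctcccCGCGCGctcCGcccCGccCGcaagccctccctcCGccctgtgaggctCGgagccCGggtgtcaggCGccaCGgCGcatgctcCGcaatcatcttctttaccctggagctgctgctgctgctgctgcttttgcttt
MTAP, chr9:21802386-21802685, plus strand: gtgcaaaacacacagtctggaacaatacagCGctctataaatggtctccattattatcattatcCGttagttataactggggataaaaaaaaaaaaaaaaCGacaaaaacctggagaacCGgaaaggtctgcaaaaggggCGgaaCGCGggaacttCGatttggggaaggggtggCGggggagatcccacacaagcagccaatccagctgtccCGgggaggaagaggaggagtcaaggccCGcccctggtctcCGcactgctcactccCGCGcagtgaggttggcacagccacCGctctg
CDKN2A, p16INK4a start, chr9:21974808-21975107, minus strand: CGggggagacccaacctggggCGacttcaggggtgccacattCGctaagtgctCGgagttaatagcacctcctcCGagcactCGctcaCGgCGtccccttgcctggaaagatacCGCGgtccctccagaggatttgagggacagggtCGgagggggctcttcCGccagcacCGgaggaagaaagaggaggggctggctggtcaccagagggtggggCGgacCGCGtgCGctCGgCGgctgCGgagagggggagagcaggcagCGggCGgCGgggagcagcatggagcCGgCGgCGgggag
CDKN2A, upstream start, chr9:21995275-21995574, minus strand: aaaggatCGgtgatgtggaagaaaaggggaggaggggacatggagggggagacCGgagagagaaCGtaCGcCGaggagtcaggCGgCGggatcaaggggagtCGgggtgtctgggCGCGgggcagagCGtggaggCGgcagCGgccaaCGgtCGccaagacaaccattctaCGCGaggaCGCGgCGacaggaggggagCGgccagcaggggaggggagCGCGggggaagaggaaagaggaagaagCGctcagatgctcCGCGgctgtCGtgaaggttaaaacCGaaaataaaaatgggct
CDKN2B, chr9:22009256-22009555, minus strand: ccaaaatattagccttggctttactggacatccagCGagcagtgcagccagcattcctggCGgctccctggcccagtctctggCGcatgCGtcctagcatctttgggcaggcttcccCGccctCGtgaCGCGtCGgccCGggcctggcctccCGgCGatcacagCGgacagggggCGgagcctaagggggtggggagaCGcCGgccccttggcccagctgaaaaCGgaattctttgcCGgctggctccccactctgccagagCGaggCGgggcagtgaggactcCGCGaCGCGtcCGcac

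The upstream start of CDKN2A had the most CpG of the 5 promoters, 28 in 300 bases, and 26.2% of all 35116 RefSeq promoters had as many or more. The p16INK4a start had 26, CDKN2B 25 and MLLT3 24. MTAP had 15, close to the median of 14 over all promoters. The motif GGGCGG, read on both strands with overlapping matches counted, occurred 3 times in the MLLT3 promoter, 2 times each in those of MTAP, p16INK4a and CDKN2B, and 0 times at the upstream start of CDKN2A, and 45.0% of all promoters held it.

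RS4;11 had no peak in any of its 4 lists from 19856956 to 25134359 on chromosome 9, a stretch of 5.28 Mb that holds all 4 gene windows, the interferon window and 58.6% of the span. Single lists gave much the same stretch. It ran 5.352 Mb in NT library 1, 5.406 Mb in NT library 2, 5.386 Mb in sh2 library 1 and 5.617 Mb in sh2 library 2. The longest empty interval of the span was far shorter in the other lines, at 0.419, 0.461, 0.610 and 0.541 Mb in the SEM lists and at 0.670, 0.488, 1.134 and 1.238 Mb in the RCH lists, each in the order NT then sh2. Over all lists of a line it was 0.260 Mb in SEM and 0.488 Mb in RCH. Whether the DNA of the stretch is present in RS4;11 was not tested, since the lists hold called peaks and no read depth.

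**Figure D1:**
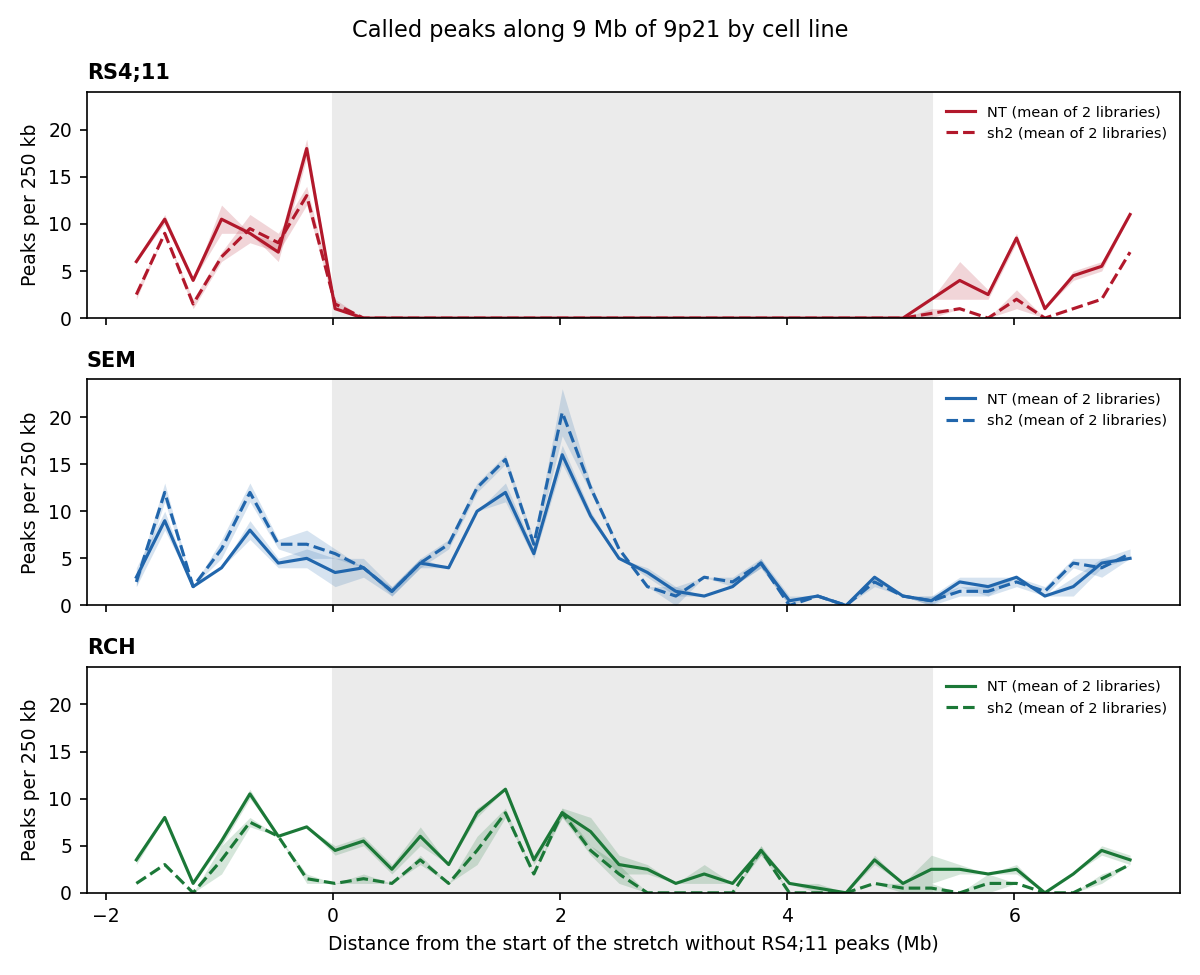
Peaks per bin of 250 kb along the span, by line, against distance in Mb from the first base of the stretch without RS4;11 peaks (grey, 5.28 Mb long). Lines are the mean of 2 libraries (solid NT, dashed sh2) and bands their range. RS4;11 is at 0 throughout the grey stretch apart from the bins that cross its edges, while SEM and RCH have peaks across most of it.

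The stretch held more regions of the other lines than any other interval without RS4;11 peaks. It held 173 regions of SEM or RCH, of which 26 had a peak in all 8 lists of these lines. The interval next in number of such regions, on chromosome 10 from 132801088 to 133252036, held 24, and none of them was in all 8 lists. That after it, on chromosome 2 from 1609327 to 1754585, held 22, with 5 in all 8 lists. Intervals without SEM peaks held at most 35 regions of the other lines, and intervals without RCH peaks at most 21. Over all chromosomes, 22319 of the 22784 regions with a peak in all 8 SEM and RCH lists also had an RS4;11 peak (98.0%). Beside the stretch, RS4;11 had a peak at 11 of 11 such regions in the 1.86 Mb to its left and at 3 of 3 in the 1.87 Mb to its right. These numbers describe a stretch that was chosen on this absence.

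**Figure D2:**
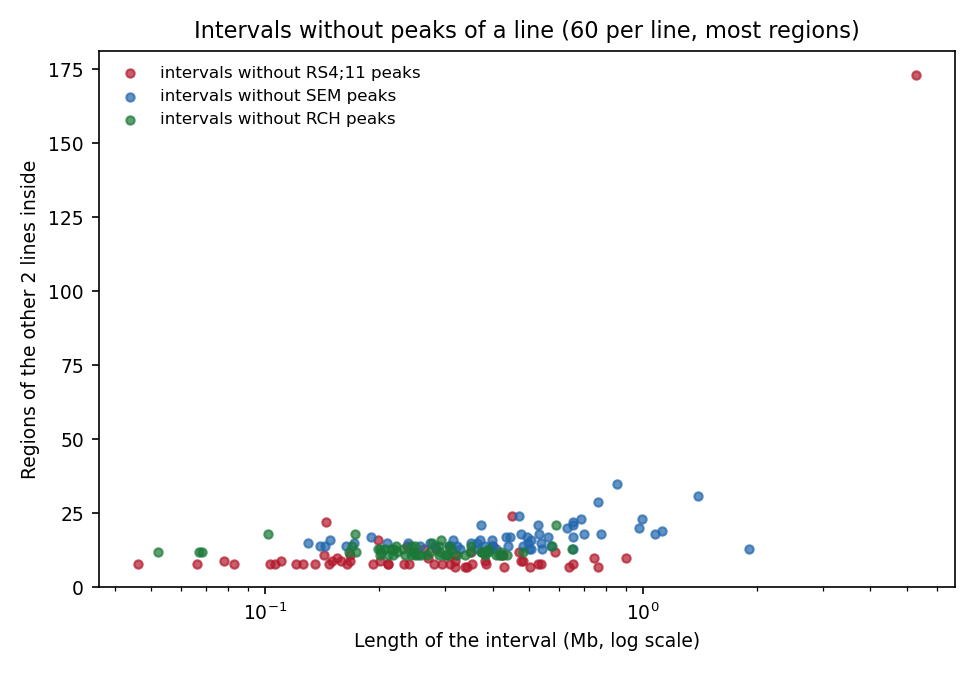
For each line, the 60 intervals without its peaks that hold the most regions of the other lines, plotted by length (Mb, log scale) and by that number of regions. The 9p21 stretch of RS4;11, at 5.28 Mb and 173 regions, lies far from all others, the next of which holds 35 (an interval without SEM peaks).

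The left edge lay beyond a dense group of RS4;11 peaks. In the window of SLC24A2 (19.5 to 19.8 Mb), a gene for a sodium, calcium and potassium exchanger of neurons, the RS4;11 lists had 18 and 20 peaks with NT and 13 and 14 with sh2. SEM had 7, 4, 5 and 9 and RCH 8, 8, 1 and 2 there, in the same order, so that RS4;11 was above every list of the other lines. Of the 21 RS4;11 regions of this window, 10 had no SEM or RCH peak, and 4 of those were in all 4 RS4;11 lists. The last region in all 4 RS4;11 lists, at 19748346 to 19749138, was weak in RS4;11 and stronger in SEM. Its folds, the authors' ratio of signal over background for a peak, were 4.03 and 4.91 with NT and 4.40 and 4.74 with sh2 in RS4;11, against 7.41, 8.47, 14.0 and 14.2 in SEM. Folds were not normalized between lists, so values set side by side show no change in level. The very last RS4;11 region, at 19856756 to 19856955, was a peak of 200 bp with a fold of 3.55 in sh2 library 2 alone, and no SEM or RCH list had a peak there.

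The right edge lay in sparse chromatin. The first RS4;11 region after the stretch, at 25134360 to 25134666, had a peak in NT library 1 alone (3.94), with 1 SEM list (5.46) and 1 RCH list (4.25). The first strong one, at 25351798 to 25352403, had folds of 17.99 and 16.3 in the NT libraries of RS4;11 and no peak with sh2. SEM had 7.74 and 7.0 there with NT and 5.31 in sh2 library 1. The first region in all 4 RS4;11 lists, at 25964212 to 25964655, came 830 kb after the stretch, with folds of 12.1 and 13.1 with NT and 9.14 and 9.68 with sh2. Where a peak had to be in at least 2 RS4;11 lists, the stretch grew to 5.42 Mb. The edges are placed only to within the spacing of peaks.

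At the flank regions open in all 12 lists, the median rank within a list was no lower in RS4;11 than in the other lines. At the 11 regions of the left flank open in all 12 lists, RS4;11 had a median percentile of fold within a list of 82.7, SEM of 79.8 and RCH of 80.7. Over all 21535 such regions it was 79.7, 76.3 and 73.4. At the 3 of the right flank it was 94.3, 93.0 and 93.7. Regions with a peak in RS4;11 and in no other line made up 30 of its 79 regions in the left flank (38.0%) and 23 of its 48 in the right flank (47.9%), against 28.6% over all chromosomes.

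At MLLT3 (20.33 to 20.64 Mb), RS4;11 had 0 peaks in each list. SEM had 2 and 3 with NT and 3 and 3 with sh2, and RCH had 5 and 3 with NT, then 3 and 2 with sh2. The single strongest region of this window, at 20621737 to 20622940, covers the known start of the gene. In SEM its folds were 13.0 and 9.85 with NT and 10.8 and 13.1 with sh2. In RCH they were 12.6 and 10.9 with NT, 10.7 and 10.6 with sh2. The NT and sh2 libraries of SEM overlapped in fold, and in RCH both NT folds lay just above both sh2 folds. Ranked within their own lists, the RCH libraries overlapped as well. Both sh2 percentiles of RCH (90.1, 91.0) fell between its NT percentiles (87.0, 91.7). The gene body differed between the lines. A region at 20351678 to 20352079, near the end of the gene, was found in all 4 RCH lists (5.87 to 6.72) and in no SEM list, and one at 20441731 to 20442105 was found in all 4 SEM lists (5.31 to 6.87) and in no RCH list.

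At MTAP (21.79 to 21.88 Mb), RS4;11 again had 0 peaks in each list. SEM had 6 and 5 with NT and 6 and 7 with sh2, above every RCH list (3, 2, 3 and 3). The strongest region, at 21802226 to 21803612, covers the known start of MTAP, and was alike in all 8 lists. It had folds of 11.95 and 10.9 with NT and 11.3 and 11.0 with sh2 in SEM, and of 11.6 and 12.02 with NT and 11.1 and 9.22 with sh2 in RCH. A region upstream of that start, at 21789477 to 21790024, crossed the left edge of the window and was also in all 8 lists (5.91 to 8.92). Within the gene SEM had more regions than RCH. That at 21812998 to 21813516 was in all 4 SEM lists (5.69 to 7.49) and in 3 RCH lists (4.65 to 5.79). Those at 21813885 to 21814136, at 21832066 to 21832501 and at 21833059 to 21833361 were in all 4 SEM lists and in no RCH list, while that at 21841447 to 21841836 was in all 4 RCH lists (4.76 to 9.33) and in no SEM list. At 21832066 the SEM folds were 4.94 and 4.84 with NT and 7.94 and 8.33 with sh2.

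At CDKN2A and CDKN2B (21.96 to 22.02 Mb), RS4;11 had 0 peaks in each list, SEM had 7 and 7 with NT and 6 and 9 with sh2, and RCH had 4 and 5 with NT, then 4 and 6 with sh2. The region at the known start of p16INK4a, 21974656 to 21975644, was among the strongest of the window in SEM, with folds of 10.1 and 9.08 with NT and 9.72 and 10.96 with sh2. In RCH it had no peak in NT library 1, 5.34 in NT library 2, 6.18 in sh2 library 1 and 5.12 in sh2 library 2. The lines did not overlap in fold at this region. Their percentiles within their lists, which allow for the range of each list, were also apart, from 76.9 to 85.0 in SEM and from 37.4 to 60.5 in the RCH lists with a peak.

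Around the first exon of p14ARF and the start of the antisense gene CDKN2B-AS1, SEM and RCH overlapped in fold where both had peaks. The region at 21994081 to 21994943 had folds of 6.77, 6.66, 6.64 and 6.86 in SEM and of 6.39, 6.39, 5.94 and 7.04 in RCH, in the order NT libraries then sh2 libraries. Its neighbour at 21994986 to 21995576 had 7.29, 7.32, 6.79 and 7.23 in SEM and 8.06, 8.85, 6.80 and 6.93 in RCH. Within the lists this neighbour ranked higher in RCH, at percentiles of 67.6 to 76.6, than in SEM, at 54.5 to 62.5. Another, at 21995650 to 21996147, was in the 4 SEM lists alone, with folds of 2.37 to 3.47.

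At the known start of CDKN2B, 22008600 to 22009589, SEM had folds of 7.66 and 7.37 with NT and 10.1 and 11.4 with sh2. RCH had 4.30 in NT library 2, 4.86 in sh2 library 2 and no peak in the remaining libraries. Both sh2 libraries of SEM thus lay above both NT libraries at this start, while at the p16INK4a start NT and sh2 libraries overlapped. Such separation was common. Of the 22784 regions of the genome in all 8 SEM and RCH lists, 24.6% had both sh2 percentiles of SEM above both NT percentiles. At 23.0% both lay below. Whether the CDKN2B start differs from these was not tested. In the 3' part of CDKN2B-AS1 (22.02 to 22.13 Mb), a long noncoding RNA that runs away from CDKN2A, SEM had 7 regions and RCH 3. The region at 22030020 to 22030525 had folds of 8.60, 6.93, 9.89 and 8.84 in SEM and no RCH peak.

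**Figure D3:**
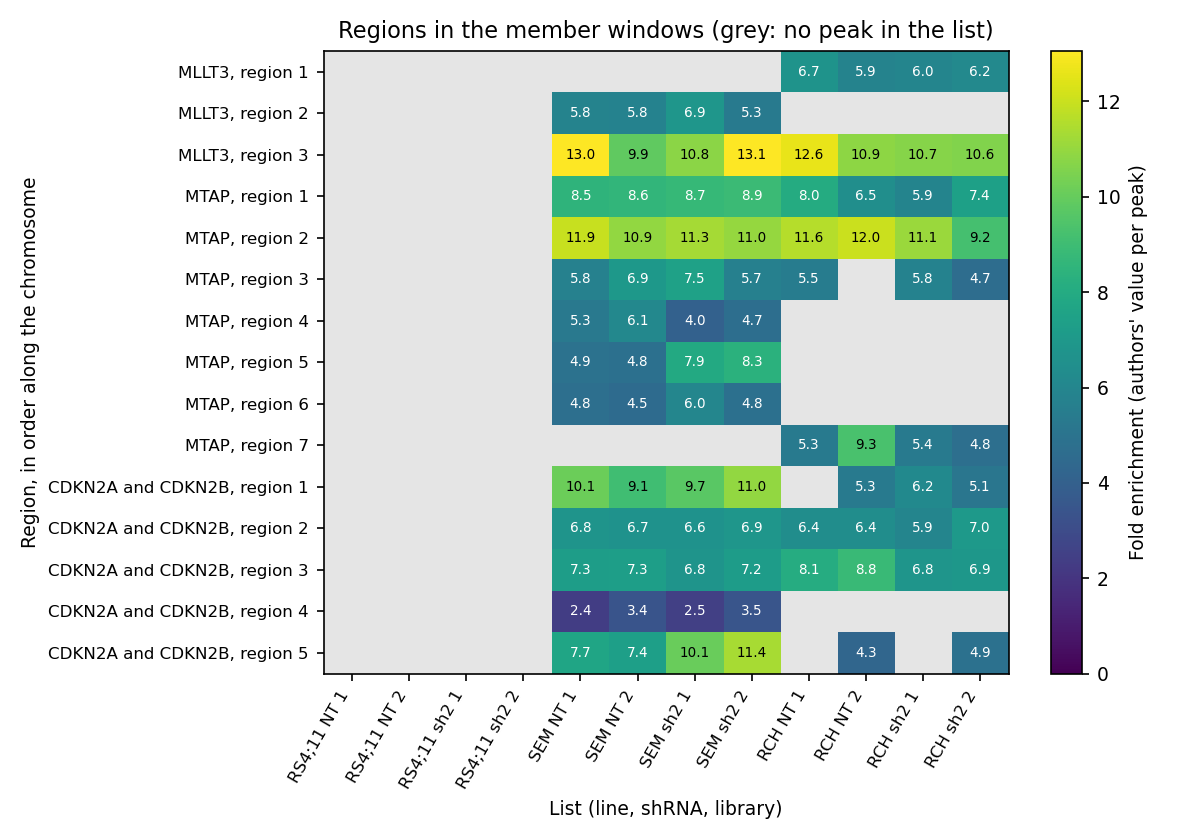
Fold enrichment (the authors' value for a peak, printed in each cell) at the regions of the MLLT3, MTAP and CDKN2A with CDKN2B windows that were in at least 6 SEM and RCH lists or in all 4 lists of a line. Columns are the 12 lists, grey cells have no peak, and the rows run along the chromosome. The RS4;11 columns are empty, and the first and last CDKN2A and CDKN2B rows are stronger in SEM than in RCH.

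No region of the MLLT3, MTAP or CDKN2A and CDKN2B windows was NT-only or sh2-only in SEM or RCH. NT-only means that a region had a peak in both NT libraries of a line and in neither sh2 library, and sh2-only means the reverse. Merged from the lists of each line alone, these windows held 4, 8 and 9 regions in SEM and 5, 3 and 7 in RCH, so a count of 0 says little at backgrounds of 2.61% (NT-only) and 7.65% (sh2-only) over all regions of SEM, and of 10.5% and 1.92% over those of RCH. With folds limited to those above the median of all pooled peaks (6.37), the windows of MTAP and of CDKN2A with CDKN2B kept 5 regions each of 9 and 10.

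The interferon window (21 to 21.5 Mb), which holds the genes for interferon beta and the alpha family, was densely populated in the other lines. RS4;11 had 0 peaks, SEM had 21 and 23 with NT and 29 and 27 with sh2, and RCH had 20 and 19 with NT and 14 and 12 with sh2. In SEM every sh2 list had more peaks than every NT list, and in RCH every sh2 list had fewer. Peak number outside the span moved the same way, by 16.1% in SEM and by -24.4% in RCH. As a share of a list, the window held 0.0390% and 0.0418% with NT and 0.0452% and 0.0434% with sh2 in SEM. In RCH these shares were 0.0354% and 0.0333% with NT and 0.0316% and 0.0289% with sh2. Of its 36 regions, 20 were shared by SEM and RCH, and 10 had a peak in all 8 lists. The strongest, at 21334870 to 21335682, had folds of 11.3 and 11.9 with NT and 15.0 and 13.4 with sh2 in SEM, and of 15.4 and 13.1 with NT and 12.1 and 11.2 with sh2 in RCH. That at 21381603 to 21382390 had 10.1, 9.64, 12.8 and 12.2 in SEM and 12.7, 13.0, 8.51 and 8.56 in RCH. At both, the folds of the sh2 libraries lay above those of the NT libraries in SEM and below them in RCH. By percentile within a list the same held at 21381603. At 21334870 it held in SEM, while the RCH libraries overlapped, at 96.8 and 93.9 with NT and 94.8 and 92.9 with sh2. Over all 22784 regions of the genome in all 8 SEM and RCH lists, such separation was common. Both sh2 percentiles lay above both NT percentiles at 24.6% of them in SEM, and below at 36.8% in RCH. At 21160161 to 21160594 the folds were 6.11, 9.86, 9.69 and 12.3 in SEM, where the groups overlapped, and 10.3, 10.2, 7.89 and 5.88 in RCH. In this window 3 of 32 SEM regions were sh2-only and 0 were NT-only, and 3 of 24 RCH regions were NT-only and 0 were sh2-only, shares near the backgrounds given above.

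Across the whole stretch SEM had 142 regions. RCH shared 72 of them and had 31 more of its own. The shared ones are 50.7% of the SEM regions and 69.9% of the RCH regions, against 62.9% and 67.3% over all chromosomes. The bases shared by a SEM and a RCH list over the bases covered by either averaged 0.350 in the stretch (0.263 to 0.472 over 16 pairs of lists) and 0.452 over all chromosomes (0.417 to 0.487). Most lay between the MLLT3 window and the end of the DMRTA1 window (20.33 to 22.46 Mb), with 71.1% of the SEM regions and 62.1% of the RCH regions. Support differed between regions. With folds above 6.37 only, 83 SEM and 47 RCH regions stayed and 37 were shared. A peak in both libraries of at least 1 sample was found at 97 SEM and 63 RCH regions.

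The strongest region of the stretch over both lines lay in FOCAD, the gene after MLLT3, at 20683449 to 20684915. Its folds were 14.9 and 15.0 with NT and 17.3 and 16.8 with sh2 in SEM, and 19.7 and 18.3 with NT and 18.8 and 18 with sh2 in RCH. Next came the interferon region at 21334870, a region between MLLT3 and FOCAD at 20640310 to 20641013 (10.9 to 14.6 in SEM and 11.3 to 15.4 in RCH), and the starts of MLLT3 and MTAP. Among regions without RCH peaks, the strongest covered the known start of DMRTA1, a transcription factor gene, at 22446519 to 22447686. It had folds of 10.4 and 10.9 with NT and 11.0 and 11.3 with sh2 in SEM. The others were that at 22030020 and one at 23258590 to 23259035 (4.69, 9.42, 9.29 and 11.4). A pair of regions upstream of DMRTA1 was singled out after its values were seen. That at 22405925 to 22406673 had folds of 14.9, 17.1, 22.6 and 21.02 in SEM and of 6.10, 5.78 and 3.66 in RCH, with no peak in RCH sh2 library 2, and that at 22416493 to 22417219 had 11.8, 16.4, 14.6 and 16.3 in SEM and 11.1, 12.4, 7.32 and 4.76 in RCH. The strongest regions without SEM peaks were those in MLLT3 and MTAP already given and one at 25103048 to 25103500, in 3 RCH lists (5.07 to 7.99).

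**Figure D4:**
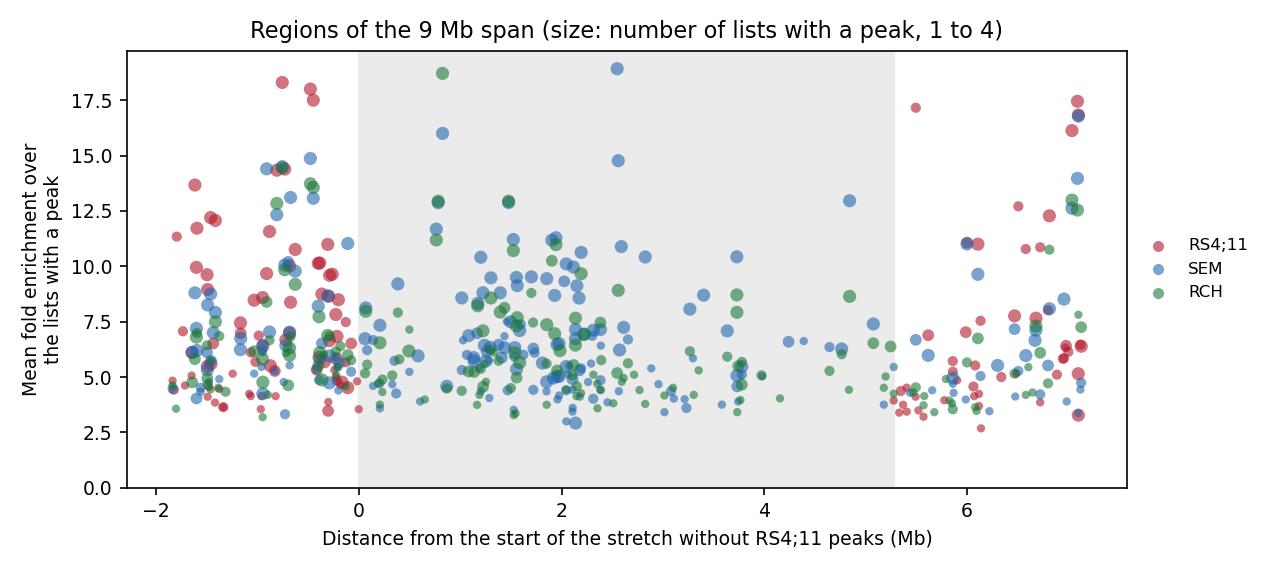
Regions of the span by distance from the first base of the stretch (Mb) and by mean fold over the lists of a line that had a peak there, with point size for the number of those lists (1 to 4). RS4;11 points stop at the grey stretch and resume after it. The strongest RCH point inside it is that in FOCAD, and the strongest SEM points are those upstream of DMRTA1 and in FOCAD.

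Peak number was higher with the NSD2 shRNA in SEM and lower in the other lines, a difference between lines that was not tested. In the stretch SEM went from 96 and 90 peaks with NT to 114 and 112 with sh2 (21.5% more), and RCH from 80 and 81 to 47 and 42 (a change of -44.7%). In the left flank RS4;11 went from 66 and 66 to 48 and 55 (-22.0%), SEM from 38 and 34 to 47 and 49 (33.3%) and RCH from 41 and 44 to 21 and 24 (-47.1%). In the right flank RS4;11 went from 43 and 35 to 15 and 12 (-65.4%) and RCH from 15 and 20 to 8 and 5 (-62.9%), while SEM stayed between 19 and 22. No line that had peaks showed overlap of its NT with its sh2 libraries in the stretch or in the left flank.

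Over the span the number of peaks was 105 ± 5.66 (SD, n = 2 libraries) with NT and 65 ± 2.83 with sh2 in RS4;11, 149.5 ± 4.95 and 182 ± 1.41 in SEM, and 140.5 ± 6.36 and 73.5 ± 3.54 in RCH. On the log2 scale the sh2 mean over the NT mean came to -0.69, 0.28 and -0.93, against -0.35, 0.22 and -0.40 for the peaks outside the span. Its mean was -0.45 ± 0.65 (SD, n = 3 lines). An exact sign-flip test over lines, two-sided, gave p = 0.5 and can give no p below 0.25, so no common effect was shown. With lists of a line cut to equal length by fold, the ratios were -0.43, 0.11 and -0.53. Within a line there is 1 sample per shRNA and no test of NT against sh2.

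**Figure D5:**
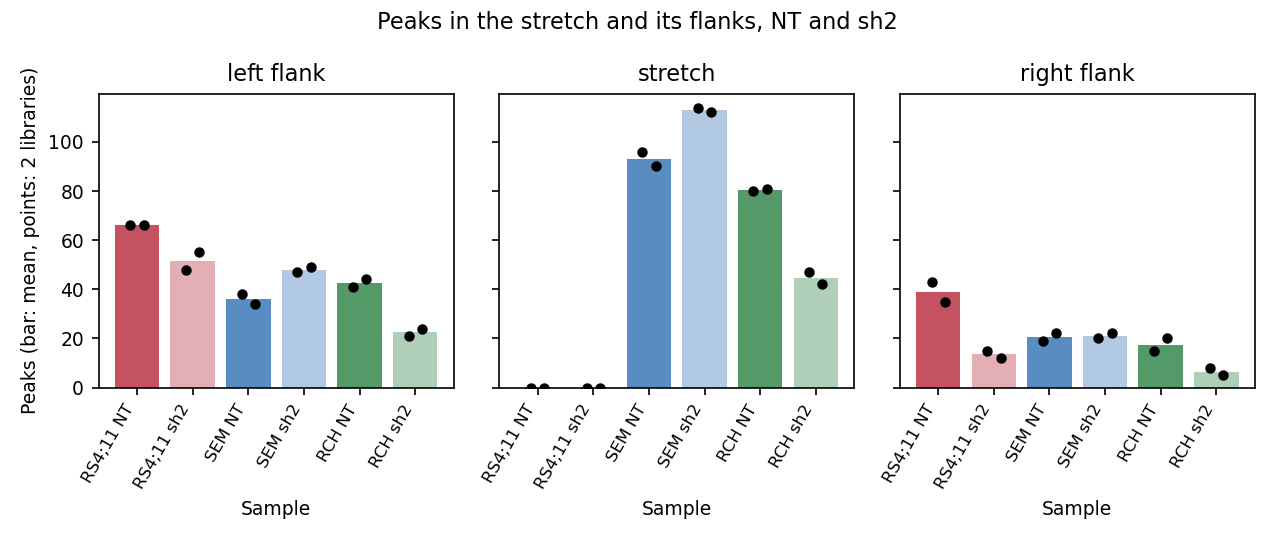
Number of peaks in the left flank (1.86 Mb), the stretch (5.28 Mb) and the right flank (1.87 Mb) in each sample, with bars for the mean and points for the 2 libraries. RS4;11 is at 0 in the stretch. RCH and, in the flanks, RS4;11 are lower with sh2, and SEM is higher in the stretch and the left flank.

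Regions were then counted by class. Of 129 RS4;11 regions, merged here from the lists of that line alone, 26 were NT-only (20.2%, exact 95% binomial interval 13.6 to 28.1, counting error only) and 0 were sh2-only, beside backgrounds of 9.68% and 0.879%. Of 182 RCH regions, 35 were NT-only (19.2%, 13.8 to 25.7) and 1 was sh2-only, beside 10.5% and 1.92%. Of 230 SEM regions, 6 were NT-only (2.61%) and 18 sh2-only (7.83%, 4.70 to 12.1), both close to the background. The NT-only regions of RS4;11 lay in the flanks by construction, 17 of 49 regions in the right and 9 of 80 in the left. These counts moved with single libraries, because with 1 library left out a single list decides. The RS4;11 NT-only count was 47 without NT library 2, and its sh2-only count 5, 3 and 1 without sh2 library 1, sh2 library 2 and NT library 2. In SEM the NT-only count was 16, 14 and 11 without NT library 1, NT library 2 and sh2 library 2, and the sh2-only count 28, 38 and 47 without NT library 1, sh2 library 1 and sh2 library 2. In RCH the NT-only count was 69 and 60 without NT library 1 and 2, and the sh2-only count 3 and 2 without NT library 1 and 2 and 6 without either sh2 library.

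The NT-only and sh2-only regions that ranked highest by mean percentile of fold in the libraries with a peak included the following. In RS4;11 the first was that at 25351798 near the right edge, given above. It was followed by 26363353 to 26363770, with 14.2 and 11.3 in the NT libraries and, in SEM, peaks with sh2 alone (5.90 and 4.65), and by 18061260 to 18061779 (11.4 and 11.2), which no SEM or RCH list held. In RCH the first was 26669694 to 26670182, with 10.3 and 11.2 with NT. The same place kept a peak in all lists of RS4;11 and SEM, with folds of 17.7 and 16.3 with NT and 7.67 and 7.54 with sh2 in RS4;11. In the stretch, RCH had a peak with NT alone at 21559469 to 21560191 (10.1 and 7.53), where SEM had 11.7 and 10.7 with NT, and 7.90 and 7.77 in the sh2 libraries. The next, at 20242766 to 20243178, had 7.11 and 8.72 with NT, and all 4 SEM lists had a peak there (8.38 to 10.5). The 1 sh2-only region of RCH lay at 21709517 to 21709790 (6.67 and 4.55). The highest sh2-only region of SEM, at 22159038 to 22159446, had folds of 6.29 and 7.43, and its highest NT-only region, at 22512552 to 22512837, had 7.55 and 5.85.

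At the 26 regions of the stretch with a peak in all 8 SEM and RCH lists, rank within a list was compared, since peak presence could not differ there. In SEM the fold percentile was higher in both sh2 libraries than in both NT libraries at 12 regions and lower at 5, with a median of 72.6 with NT and 83.6 with sh2 and a median change per region of 4.84 percentile points. Over all 22784 such regions of the genome 24.6% were higher and 23.0% lower, the medians were 75.5 and 76.5, and the median change was -0.0654. In RCH 4 were higher and 11 lower, with medians of 75.5 and 68.2 and a median change of -3.92. Over all such regions 18.1% were higher and 36.8% lower in RCH, the medians were 76.4 and 70.8, and the median change was -2.67. The SEM share of higher regions (46.2%) lay above its background, and the RCH share of lower regions (42.3%) lay near it. A percentile depends on all other peaks of its list, so these are relative positions.

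The genes that p16INK4a, p15INK4b and p14ARF act on had peaks in RS4;11. In hand-set hg19 windows, CDK4 had 4, 5, 4 and 4 peaks in the RS4;11 lists (NT then sh2), and CDK6 had 35, 32, 30 and 30, against 22, 17, 23 and 21 in SEM and 16, 15, 10 and 9 in RCH. The RS4;11 NT lists are longer than the others, and as a share of all peaks of a list these were 0.0413% to 0.0487% in RS4;11, 0.0309% to 0.0409% in SEM and 0.0216% to 0.0283% in RCH, so that the lowest RS4;11 list was close to the highest SEM list. Among cyclin D genes, CCND3 had 12 to 15 peaks in RS4;11, 13 to 16 in SEM and 10 to 13 in RCH, CCND2 had 0 to 5 over all lists and CCND1 0 to 2. RB1 had 6 to 8 peaks in RS4;11, 5 or 6 in SEM and 4 to 6 in RCH. E2F1 had 5 to 8 and MDM2 1 to 4 over all lists. PRMT5, the methyltransferase inhibited by the substrate of MTAP, had 2 or 3 peaks in every list, and MAT2A, which makes its methyl donor, had 4 to 6 in RS4;11, 2 to 4 in SEM and 2 to 5 in RCH. Of the RS4;11 regions in these 10 windows, 4 of 106 were NT-only (3.77%) and 3 were sh2-only (2.83%), beside the backgrounds of 9.68% and 0.879%.

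The lists ranged from 41594 to 84794 peaks, and read depth is unknown. The B-lineage windows of PAX5, CD79A and EBF1 had peaks in all 12 lists (5 to 11, 4 to 7 and 11 to 27). The window of the T-cell genes CD3D, CD3E and CD3G had 2 to 4 and that of the myeloid gene MPO 0 to 2, so a peak in such a window does not by itself mark a lineage.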

How the data were processed

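ATAC-seq libraries of 3 cell lines were made by tagmentation with a Nextera transposase and barcoded PCR, per the labels' protocols. Bowtie2, MACS2 and hg19 are named in the submitters' processing notes, without versions, settings or filters. The 12 deposited lists give position and a fold enrichment, a ratio of the peak over its own background computed by the authors. That unit was inferred from the values, the folds are not normalized between lists, and read depth is unknown.

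Peaks on the 22 autosomes and X were kept (718792, with 140 on other chromosomes dropped). Peaks that touched or overlapped were merged into regions, over all 12 lists or, for NT-only and sh2-only classes, over the lists of a line. A list counted as open with at least 1 bp of overlap. Percentiles are ranks of fold within a list. Gene windows were set by hand from known hg19 positions, rounded outwards to 10 kb, with no annotation of that build. NT and sh2 were paired by line, as the titles name it, and tested over the 3 lines with an exact two-sided sign-flip test. Python 3.11.15, numpy 2.4.6, pandas 2.3.3 and scipy 1.17.1 were used, and matplotlib 3.10.9 for the figures.

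The genes, windows and lists were chosen with earlier results of these data known. Regions are named by rule: in the gene windows those in at least 6 SEM and RCH lists or all 4 lists of a line, 3 interferon regions of highest percentile, the edge regions, the top 5 of the stretch, the top 3 of SEM without RCH and the reverse, and up to 3 NT-only and 3 sh2-only regions per line. Alternatives were lists of equal length, peaks above the pooled median fold, stricter support or overlap, a distance of 1 kb, covered bases and leaving out each library.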

Additional observations from a re-analysis of the deposited data

Results flagged for a closer look

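The log2 ratio of sh2 over NT peak number was above 0 in SEM and below 0 in RS4;11 and RCH, and this difference between lines was not tested. Over the span it was 0.28 in SEM, -0.69 in RS4;11 and -0.93 in RCH. In the stretch without RS4;11 peaks it was 0.28 in SEM and -0.86 in RCH. In the left flank it was 0.41 in SEM, -0.36 in RS4;11 and -0.92 in RCH. In these places no NT library of a line overlapped its sh2 libraries. In the right flank SEM was at 0.035, with overlapping libraries (19 and 22 peaks with NT, 20 and 22 with sh2), against -1.53 in RS4;11 and -1.43 in RCH. Outside the span the lists of these lines differed in the same directions, also without overlap, with log2 ratios of 0.22, -0.35 and -0.40. With the lists of a line cut to equal length, the ratios of the span were 0.11, -0.43 and -0.53.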

How the results depend on the processing

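Of 331 alternative values, 303 kept their direction or stayed within the spread allowed, 28 moved and 0 reversed. The RS4;11 count in the windows of MLLT3, the interferon genes, MTAP and CDKN2A with CDKN2B was 0 under every alternative run. No alternative adds RS4;11 peaks, so this count could not change, and its values are among the 303. Leaving out a library also cannot change the class counts, log2 ratio or stretch length of a line it does not belong to. Those values are among the 303 too, and only log2 ratios could be labelled reversed. The 303 is therefore no measure of stability. The stretch was 5.57 Mb with only peaks above the pooled median fold and 5.42 Mb where 2 RS4;11 lists had to share a peak, and 5.28 to 5.33 Mb with a library left out. The same fold limit left 83 SEM regions, 47 RCH regions and 37 shared ones, and 3 SEM NT-only, 21 RCH NT-only and 0 RCH sh2-only regions. Support in both libraries of a sample left 97 SEM and 63 RCH regions. Lists of equal length gave 1 RS4;11 sh2-only region, and in SEM 9 NT-only and 12 sh2-only ones. With a library left out, SEM regions ran from 124 to 143, RCH regions from 87 to 105 and shared ones from 64 to 72. NT-only counts ran from 26 to 47 in RS4;11, 6 to 16 in SEM and 35 to 69 in RCH, and sh2-only counts from 0 to 5, 18 to 47 and 1 to 6. The log2 ratios ran from -0.75 to -0.64 in RS4;11, 0.25 to 0.32 in SEM and -0.98 to -0.89 in RCH, and their mean from -0.47 to -0.43. Without the replicate block, that is without pairing by line, the mean was -0.45 (exact permutation test over 6 samples, p = 0.4). With 1 sample per line and shRNA and unknown read depth, a missing peak shows no more than that none was called.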

Other observations

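Other genes of the span were read in the same way. FOCAD, a gene of focal adhesion, had 0 peaks in RS4;11, 7 and 6 with NT and 8 and 9 with sh2 in SEM, and 6 and 5 with NT and 2 and 2 with sh2 in RCH. In the left flank the window of HAUS6 and PLIN2, genes for a spindle subunit and a lipid droplet coat protein, had 4 to 7 peaks in every list, and that of DENND4C and RPS6 had 2 or 3. ADAMTSL1, a gene for a secreted matrix protein, had 13 and 11 peaks with NT and 5 and 5 with sh2 in RS4;11, 4, 4, 7 and 6 in SEM and 6, 6, 2 and 3 in RCH. In the right flank CAAP1 and PLAA had 5 to 7 peaks in RS4;11 and 2 to 4 in the other lines. The neuronal gene ELAVL2, inside the stretch, had 0 or 1 peak in every list.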
